A study of Homo sapiens with 9 samples.

Results

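NCAM1, NCAM2, L1CAM, CHL1, NRCAM, NFASC, CNTN1, CNTN2, NCAN and BCAN encode 8 neural cell adhesion molecules of the immunoglobulin (Ig) superfamily and 2 brain proteoglycans of the lectican family. They were picked by name from the gene column of a raw count table, 10 of its 67140 genes, with earlier results of the same libraries in view. Which values led to the choice is not recorded, so levels, changes and call counts of these genes are given for every comparison as a description, without a test. The libraries come from DMS273, an established human small cell lung cancer line, a tumour type of the lung with neuroendocrine features. Control cells received a scrambled CRISPRv2 guide (sgScr, genotype label WT), a second group carried a knockout of ATG7 (ATG7 KO), and the third had lost SQSTM1 as well as ATG7 by the same method (ATG7/SQSTM1 KO). Each genotype has 3 libraries, and no drug was given to any of them as far as the labels say. ATG7 encodes the enzyme that activates ubiquitin-like proteins for autophagosome formation, and SQSTM1 encodes p62, a cargo receptor of autophagy. The labels do not say whether a knockout line is 1 clone or a pool, or whether the libraries of a genotype are separate cultures. If they are not, the spread between libraries, and every p-value built on it, may be technical only.

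Ig adhesion molecules bind partners on neighbouring cells or in the matrix through stacked Ig and fibronectin type III domains. In the nervous system they guide axons, bundle neurites and hold specialised membrane domains in place, and NCAM1 (CD56) is also a routine marker of neuroendocrine tumours, small cell lung cancer among them. Lecticans are chondroitin sulfate proteoglycans that bind hyaluronan and tenascins in the extracellular matrix around neurons, and neurocan can bind NCAM1 and L1CAM.

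The libraries held 28675576 to 34222098 counts. Levels are in CPM, counts scaled to a library's depth, with trimmed-mean (TMM) correction, with group values as mean ± SD of n = 3. Log2 changes carry a standard error (SE) from edgeR, and a gene counts as called higher or lower when its edgeR adjusted p over all 18847 tested genes is under 0.05. The label check held in each library: ATG7 averaged 27.1 ± 0.90 CPM in control against 11.7 ± 1.5 and 10.6 ± 0.55 CPM in the single and double knockout, and SQSTM1 fell only in the double knockout, from 376 ± 3.5 to 51.9 ± 3.3 CPM. Of the 10 genes, 9 passed the filter on low counts and NCAM2 did not.

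Summed over the 10 genes, the level was 508 ± 13 CPM in control, 190 ± 3.8 CPM in ATG7 KO and 400 ± 5.3 CPM in ATG7/SQSTM1 KO. L1CAM alone supplied 37.8% of that sum in control, 42.5% in ATG7 KO and 39.3% in ATG7/SQSTM1 KO. In ATG7 KO, 8 of the 9 tested genes were called lower than in control, beside 28.3% of all tested genes, and 0 were called higher, beside 28.4%. Libraries of the 2 groups did not overlap for 8 of the 9, beside 62.4% of all genes, and 7 were at least 2-fold lower, beside 8.28%. Their median log2 change was −1.25, against −0.02 over all tested genes. These counts describe genes chosen with such values in view and nothing is read from them. Whether fewer cells carry an RNA or each cell carries less of it cannot be told apart in bulk libraries.

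**Figure D1:**
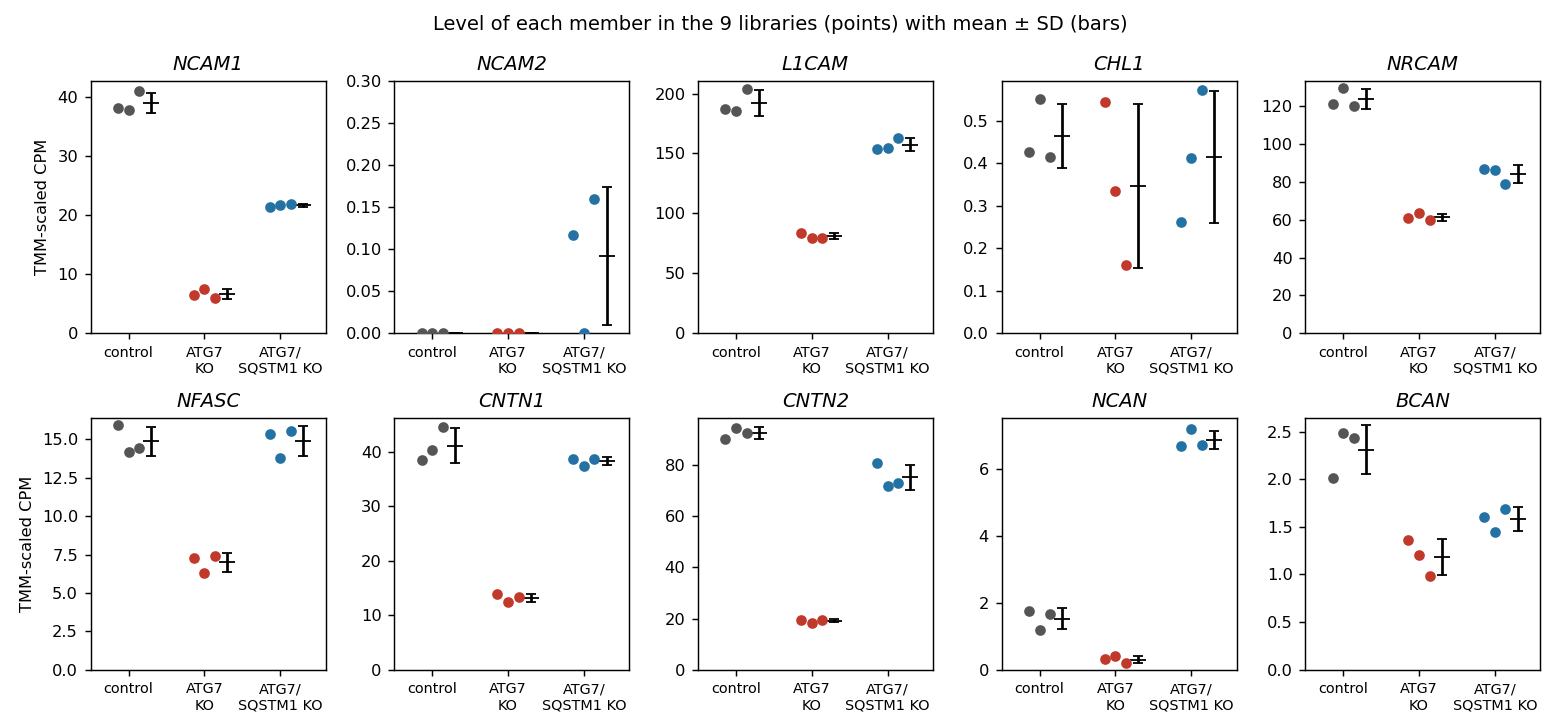
TMM-scaled CPM (vertical axes, each from 0) of the 10 genes in the control, ATG7 KO and ATG7/SQSTM1 KO libraries; points are single libraries and bars are mean ± SD, n = 3. The ATG7 KO points lie below all control points in every panel but those of NCAM2 and CHL1, and NCAN is the 1 panel where the ATG7/SQSTM1 KO points lie far above control.

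NCAM1 (ENSG00000149294; GRCh38 chromosome 11, 112961247 to 113278436, plus strand, protein coding) encodes the homophilic adhesion molecule that carries most polysialic acid in neural tissue. It measured 38.2, 37.8 and 41.0 CPM in the control libraries, 6.45, 7.51 and 5.97 CPM in ATG7 KO, and 21.4, 21.8 and 21.9 CPM in ATG7/SQSTM1 KO. The groups fell into 3 bands with no overlap, and the double knockout lay between the other two. ATG7 KO cells thus held 17.0% of the control level (log2 change −2.55, SE 0.073), the most negative log2 change among the 9 tested genes. The log2 change of ATG7/SQSTM1 KO was −0.85 (SE 0.064) against control and 1.71 (SE 0.074) against ATG7 KO.

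NCAM2 (ENSG00000154654; chromosome 21, 20998315 to 21543329, plus strand), the olfactory relative of NCAM1, was barely present. Control and ATG7 KO libraries held 0 counts each, which allows up to 0.103 CPM in the shallowest of them (3 counts, counting error only). The ATG7/SQSTM1 KO libraries held 4, 0 and 5 counts. At this depth no difference could be read, and no fold is given.

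The L1 family has 4 members, of which 3 were clearly expressed. L1CAM (ENSG00000198910; chromosome X, 153861514 to 153886174, minus strand) encodes a receptor for neurite growth and cell migration that is also studied in carcinomas. Its levels were 186.8, 185.3 and 204 CPM in control libraries, 83.7, 79.3 and 79.2 CPM in ATG7 KO, and 154, 155 and 163 CPM in ATG7/SQSTM1 KO. Again no 2 groups overlapped, with the double knockout nearer to control than to ATG7 KO. The log2 changes were −1.25 (SE 0.039) for ATG7 KO and −0.29 (SE 0.038) for ATG7/SQSTM1 KO, both against control, and 0.96 (SE 0.039) between the knockouts.

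NRCAM (ENSG00000091129; chromosome 7, 108147623 to 108456717, minus strand) encodes a relative that helps to assemble nodes of Ranvier. Control libraries held 121.5, 129.9 and 120.4 CPM, ATG7 KO libraries 60.9, 63.4 and 59.9 CPM, and ATG7/SQSTM1 KO libraries 87.1, 86.6 and 78.7 CPM. The double knockout stood between the other groups, here closer to ATG7 KO, with a log2 change of −0.56 (SE 0.042) against control and 0.45 (SE 0.043) against ATG7 KO. For ATG7 KO against control it was −1.01 (SE 0.043), just past the 2-fold mark.

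NFASC (ENSG00000163531; chromosome 1, 204828651 to 205022822, plus strand) encodes neurofascin, which clusters sodium channels at the axon initial segment and nodes. It gave 15.9, 14.2 and 14.5 CPM in control libraries, 7.30, 6.30 and 7.43 CPM in ATG7 KO, and 15.3, 13.8 and 15.5 CPM in ATG7/SQSTM1 KO. The ATG7 KO libraries lay below all others, while the double knockout and control ranges overlapped. The log2 change was −1.08 (SE 0.086) in ATG7 KO and 0.00 in ATG7/SQSTM1 KO against control, with a 95% interval of −0.17 to 0.17 for the latter.

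CHL1 (ENSG00000134121; chromosome 3, 196596 to 409417, plus strand), the close homolog of L1, sat at the edge of detection. Its counts were 14, 16 and 13 in control, 16, 10 and 5 in ATG7 KO, and 9, 12 and 18 in ATG7/SQSTM1 KO. The groups overlapped in each comparison. The 95% interval of the log2 change in ATG7 KO ran from −1.35 to 0.50, so neither a 2-fold fall nor no change lay outside it at this depth.

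Contactins are anchored to the membrane by a lipid and pair with contactin-associated proteins or L1 family members. CNTN1 (ENSG00000018236; chromosome 12, 40692442 to 41072418, plus strand), a partner of Caspr at paranodes, measured 38.5, 40.3 and 44.7 CPM in control libraries, 13.9, 12.4 and 13.3 CPM in ATG7 KO, and 38.7, 37.4 and 38.7 CPM in ATG7/SQSTM1 KO. ATG7 KO stood apart, with a log2 change of −1.64 (SE 0.060) against control, and the double knockout overlapped the control range (log2 change −0.10, 95% interval −0.22 to 0.01). Between the knockouts the log2 change was 1.54 (SE 0.060).

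CNTN2 (ENSG00000184144; chromosome 1, 205042937 to 205078284, plus strand) encodes TAG-1, an axonal glycoprotein of outgrowing neurons. Control libraries held 90.2, 94.6 and 92.6 CPM, against 19.6, 18.4 and 19.3 CPM in ATG7 KO and 80.7, 71.9 and 72.8 CPM in ATG7/SQSTM1 KO. All 3 groups were separate, and the ATG7 KO level was 4.84-fold below control (log2 change −2.27, SE 0.048). The double knockout differed from control by −0.30 (SE 0.042) and from ATG7 KO by 1.98 (SE 0.048) on the log2 scale.

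The 2 lecticans among the 10 genes were low in all groups. NCAN (ENSG00000130287; chromosome 19, 19211973 to 19252233, plus strand), which encodes neurocan, gave 57, 34 and 52 counts in control, 9, 12 and 6 in ATG7 KO, and 229, 209 and 211 in ATG7/SQSTM1 KO. In scaled levels these were 1.53 ± 0.31, 0.300 ± 0.11 and 6.86 ± 0.27 CPM. NCAN was therefore the 1 tested gene of the 10 that was called below control in the single knockout and above control in the double knockout. Its log2 change was −2.34 (SE 0.25) in ATG7 KO and 2.16 (SE 0.18) in ATG7/SQSTM1 KO against control. Between the knockouts it was 4.50 (SE 0.23), a 22.6-fold difference.

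BCAN (ENSG00000132692; chromosome 1, 156641390 to 156659532, plus strand), which encodes brevican, measured 2.01, 2.48 and 2.43 CPM in control libraries, 1.36, 1.21 and 0.989 CPM in ATG7 KO, and 1.60, 1.44 and 1.69 CPM in ATG7/SQSTM1 KO. No 2 groups overlapped, and the 2 knockouts lay closest to each other. The log2 change was −0.96 (SE 0.20) in ATG7 KO and −0.55 (SE 0.20) in ATG7/SQSTM1 KO against control, and 0.41 between the knockouts with a 95% interval of −0.02 to 0.85. The double knockout call depended on the setting. BCAN lost it without control replicate 2 or 3 or ATG7/SQSTM1 KO replicate 1 or 2, in DESeq2, and with no filter on low counts. An antisense gene, AL365181.3, overlaps BCAN with 28 counts on average beside 52.3 for BCAN, and since the strand setting of the counting is not given, the BCAN values are uncertain. Other genes that overlap the 10 had at most 7.78 counts on average.

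In ATG7/SQSTM1 KO against control, 5 of the 9 tested genes were called lower, beside 19.6% of all tested genes, and NCAN alone was called higher, beside 19.0%. Groups did not overlap for 6 of the 9, beside 48.8%, and the median log2 change was −0.29, against −0.01 over all genes. For ATG7/SQSTM1 KO against ATG7 KO, 7 of the 9 were called higher, beside 30.5%, and 0 lower, beside 29.9%. Groups did not overlap for 8 of the 9, beside 65.9%, with a median of 1.09 against 0.02 over all genes. NCAN was at least 2-fold higher in the double knockout than in control, beside 2.20% of genes, and 5 genes were at least 2-fold higher than in ATG7 KO, beside 9.07%. Each pair of these comparisons shares 3 libraries, so a low ATG7 KO level enters both contrasts that hold it, and they are no independent evidence of each other.

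**Figure D2:**
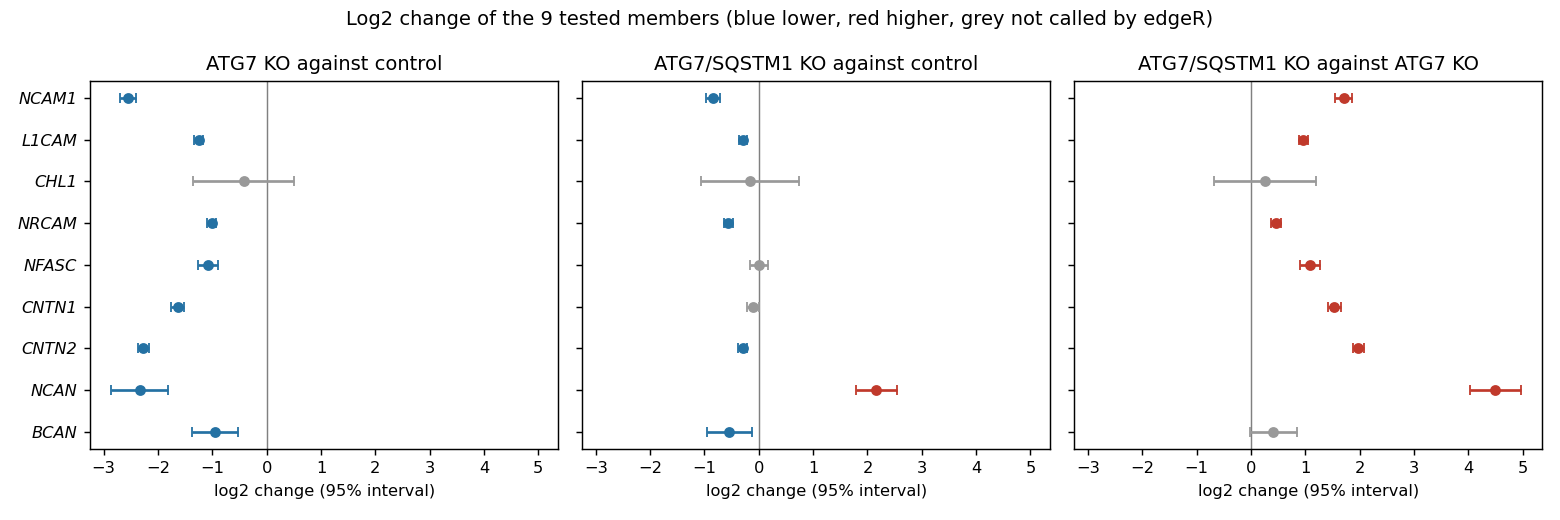
Log2 change with its 95% interval (horizontal axes) of the 9 tested genes in the 3 comparisons; blue points were called lower, red higher and grey neither. In the left panel the called genes run from −2.55 (NCAM1) to −0.96 (BCAN), in the middle panel NCAN stands alone at 2.16, and in the right panel NCAN reaches 4.50.

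The order of abundance was read per kilobase of exon, since raw CPM grows with transcript length. In control, L1CAM led at 26.4 ± 1.4 CPM per kilobase, followed by NRCAM at 15.1 ± 0.64. CNTN1 at 5.50 ± 0.43 and CNTN2 at 5.20 ± 0.12 did not differ beyond their spread, and they changed places when the longest annotated transcript was used as the length (7.41 and 11.6 CPM per kilobase). NCAM1 came next at 3.06 ± 0.14, then NFASC at 0.699 ± 0.044, BCAN at 0.468 ± 0.052, NCAN at 0.221 ± 0.045 and CHL1 at 0.0392 ± 0.0063. At baseline the highest levels were thus those of 2 L1 family genes and 2 contactins, with NCAM1 below them per unit length. In the double knockout NCAN stood at 0.993 ± 0.040 CPM per kilobase, above NFASC at 0.700, but with the longest transcript as the length it was below NFASC (1.07 against 1.44). In ATG7 KO it lay at 0.0435 CPM per kilobase, close to CHL1.

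**Figure D3:**
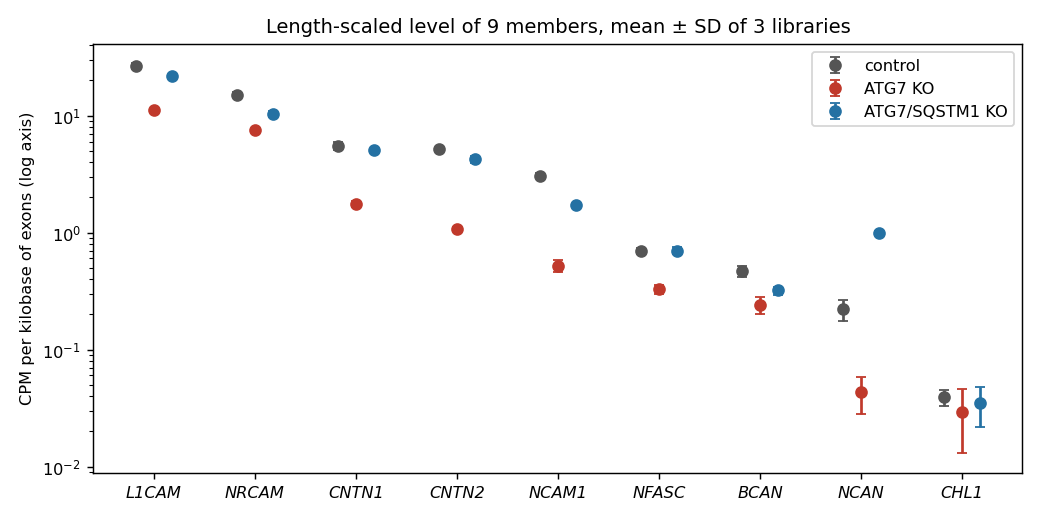
Level per kilobase of exons (CPM per kilobase, log axis) of 9 genes, as mean ± SD of the 3 libraries in control, ATG7 KO and ATG7/SQSTM1 KO; NCAM2 is left out because most of its libraries are at 0. The levels span from 26.4 for L1CAM to 0.0392 for CHL1 in control, and the ATG7/SQSTM1 KO point of NCAN at 0.993 lies above its control point at 0.221.

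NFASC and CNTN2 are neighbours on chromosome 1, with 20.1 kb between the end of NFASC and the start of CNTN2 on the same strand, yet their changes differed in size. NFASC in ATG7 KO changed by −1.08 and CNTN2 by −2.27 on the log2 scale, and in the double knockout NFASC lay at the control level while CNTN2 lay 0.30 below it. Their upstream windows are printed to show the sequence before the starts of these adjacent genes. RefSeq promoter windows (GRCh38.p14) were at hand for 8 of the 10 genes. Each window below is on the plus strand and ends before the first annotated exon base of the most upstream start, with NFASC at chr1:204828402-204828650 and CNTN2 at chr1:205042699-205042936.
NFASC: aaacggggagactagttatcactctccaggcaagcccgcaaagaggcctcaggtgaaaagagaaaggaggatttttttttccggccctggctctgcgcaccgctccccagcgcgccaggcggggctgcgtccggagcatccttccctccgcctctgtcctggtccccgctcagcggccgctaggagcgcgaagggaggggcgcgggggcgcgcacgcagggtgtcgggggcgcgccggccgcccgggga
CNTN2: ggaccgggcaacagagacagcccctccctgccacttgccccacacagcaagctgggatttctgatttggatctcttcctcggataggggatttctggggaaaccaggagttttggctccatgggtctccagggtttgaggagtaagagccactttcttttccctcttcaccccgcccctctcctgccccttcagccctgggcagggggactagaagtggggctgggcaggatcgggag
Over the 250 bases before the most upstream RefSeq start, the GC content of the 8 windows ran from 47.2% (CNTN1) to 78.4% (NRCAM). It was 69.6% for NFASC and 61.2% for CNTN2.

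The search covered 3 motifs on both strands of these 250-base windows. The E-box CAGATG can be bound by NEUROD1. CAGCTG is an E-box that reads the same on both strands. TTCAGCACC is 1 arm of the element bound by the neural repressor REST. The matches shown do not overlap one another. CAGATG occurred in 12.2% of all 35116 RefSeq windows, CAGCTG in 14%, and TTCAGCACC in 0.288%. Those shares count all listed starts. Among the 8 windows at the most upstream RefSeq start of each gene, L1CAM was the 1 with CAGATG and also the 1 with CAGCTG, and 0 held TTCAGCACC. Those of CNTN1 (from chr12:40827934) and NCAM2 (from chr21:21146912) lie far inside the GENCODE genes, which begin at 40692442 and 20998315. The windows of BCAN (from chr1:156641867) and NRCAM (from chr7:108456686, minus strand) also lie inside the GENCODE genes, whose 5′ ends are at 156641390 and 108456717. For CNTN1, NCAM2, BCAN, NRCAM and L1CAM the sequence before the GENCODE 5′ end was thus not searched. At other listed starts NRCAM held CAGATG (75 bases before) and CNTN1 held CAGCTG (246 bases before). The other listed start of L1CAM held CAGATG (78 bases before) and CAGCTG (124 bases before). These are the same sites as those given below at 8 and 54 bases. The RefSeq start of L1CAM used here lies inside the GENCODE gene, downstream of its annotated 5′ end, and 176 of the 250 bases before it are exonic in GENCODE. The matches lie 196, 54 and 8 bases before that start, shown in capitals in 3 stretches of the minus strand, at chrX:153876193-153876222, chrX:153876051-153876080 and chrX:153876015-153876044 in that order.
L1CAM 196 before: gtgctgggaaggCAGCTGgcaggaaaggtg
L1CAM 54 before: ggagaagccggcCAGCTGggggcggggctg
L1CAM 8 before: gggccaagagcccgggcttaccCAGATGtt
A match is only a run of letters, and no binding was measured. Of the factors named, NEUROD1 averaged 194 CPM in control, 73.3 CPM in ATG7 KO and 237 CPM in ATG7/SQSTM1 KO, and REST 25.8, 36.6 and 31.0 CPM.

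The nearest tested protein-coding genes on either side were also read, a comparison chosen after the values were seen. Of 17 such neighbours, 8 were called lower and 3 higher in ATG7 KO, beside 28.3% and 28.4% of all tested genes. Their median log2 change was −0.23, against −0.02 over all tested genes. Some of them are distant, such as MRPL39, 4042 kb from NCAM2, and TRNT1, 2718 kb from CHL1. Both genes around L1CAM fell, PDZD4 (30.9 kb away), with a log2 change of −1.09 (edgeR adjusted p = 7.86e-12), and AVPR2 (16.4 kb away), with −1.71 (edgeR adjusted p = 1.32e-07). Beside BCAN, NES, which encodes the progenitor filament nestin and lies 9.23 kb away, rose from 0.840 to 4.11 CPM (log2 change 2.29, edgeR adjusted p = 4.37e-09). Around NCAM1, PTS (log2 change 0.19, edgeR adjusted p = 0.0753) and TTC12 (0.20, edgeR adjusted p = 0.0971) passed no threshold, though PTS did without ATG7 KO replicate 2 and TTC12 without ATG7 KO replicate 3. NCAN lies between NR2C2AP (log2 change −0.23) and SUGP1 (0.05), whose changes were a small part of its own.

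**Figure D4:**
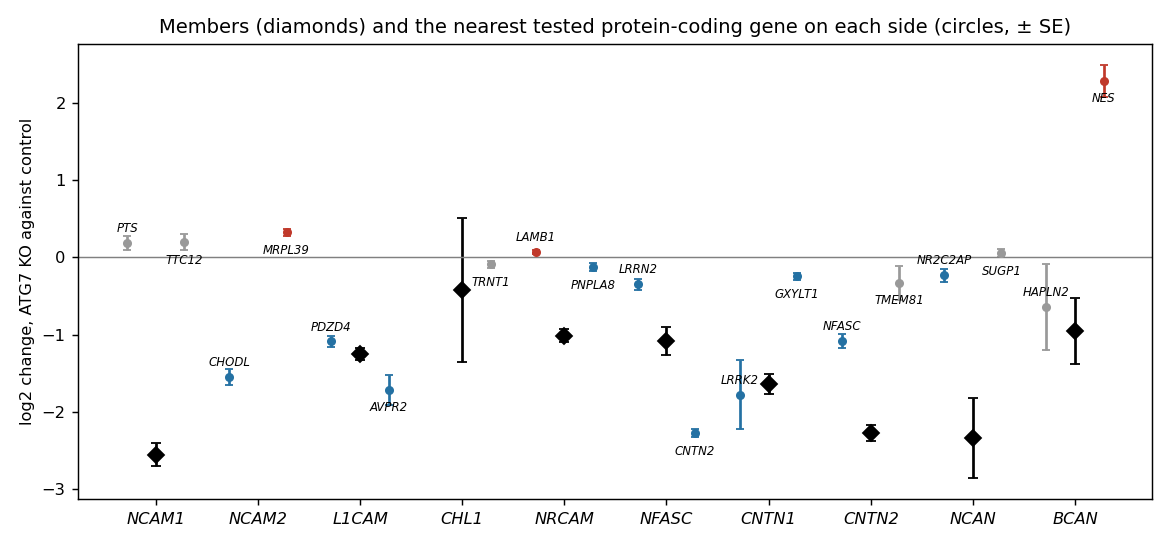
Log2 change in ATG7 KO against control (vertical axis) of each of the 10 genes (black diamonds, 95% interval) and of the nearest tested protein-coding gene before and after it (circles, ± SE; blue called lower, red called higher, grey not called); NCAM2 has no diamond because it was not tested. Both neighbours of L1CAM lie near or below it, the neighbours of NCAM1 lie near 0, and NES beside BCAN lies at 2.29.

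To see which other transcripts had the same profile, log2 CPM values of the 9 libraries were centred per gene and the Euclidean distance to 10718 candidate genes was taken. NCAM1 was nearest to CALB2 (distance 0.38), which encodes the calcium-binding protein calretinin, AMPH (0.42), an endocytic protein of synapses, and NEFH (0.50), the heavy neurofilament chain. L1CAM was nearest to PRXL2A (0.15), SH3GL2 (0.19), a synaptic endophilin, and COLGALT2 (0.19). CNTN1 was nearest to BHLHE22 (0.17), a neural transcription factor, CADM1 (0.18) and SEPTIN3 (0.19), while CNTN2 was nearest to CELF2 (0.19), an RNA-binding protein, SYTL4 (0.25) and ACVR1C (0.26). NFASC was nearest to ATG16L2 (0.21), NRCAM to PABPC4 (0.17) and BCAN to RNF182 (0.28). Fewer genes lay close to NCAN, with CSMD3 at 0.69, MKX, a homeobox factor, at 0.75, and the adhesion receptor ADGRG1 at 1.15. ADGRG1 averaged 31.6 CPM in control, 9.90 CPM in ATG7 KO and 115 CPM in ATG7/SQSTM1 KO. CHL1 had no near profile (0.88 or more), as its counts were few.

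Among the 9 tested genes themselves, the closest pairs by the same distance were L1CAM with NFASC and NRCAM with BCAN (0.45 each), followed by L1CAM with NRCAM (0.68), L1CAM with CNTN1 (0.72) and NCAM1 with CNTN2 (0.75). The 2 lecticans were far apart, at 4.93, and the nearest of the other genes to NCAN was CNTN2, at 3.47. Within the L1 family L1CAM was near NFASC and NRCAM but stood at 1.59 from CHL1, whose counts were few. The 2 contactins stood at 0.82, farther apart than the pairs across families L1CAM with CNTN1 and NCAM1 with CNTN2. These distances are descriptions over 9 libraries in 3 groups and carry no test.

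Genes that act with these molecules were taken from 6 lists of textbook partners. The lists were chosen with earlier results known, and genes named from them were in part picked for their small p. The p-values printed for them are therefore a description only. Of 72 genes, 51 were tested, and in ATG7 KO 25 were called lower and 18 higher (median log2 change −0.17). In ATG7/SQSTM1 KO against control 13 were lower and 14 higher (median 0.02), and against ATG7 KO 17 were lower and 28 higher (median 0.38). These shares are set beside 28.3% lower and 28.4% higher, 19.6% and 19.0%, and 29.9% and 30.5% of all tested genes in the same order. Counts of single lists in the double knockout against control were small and moved by 1 gene when single libraries were left out, for example from 2 to 1 contactin relatives higher without control replicate 1 or 2 or ATG7/SQSTM1 KO replicate 1.

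Contactin relatives fell for 4 of 6 tested genes in ATG7 KO and rose for 1, a rise that was lost when libraries were scaled by their totals alone. CNTNAP2, which encodes the contactin-associated protein Caspr2, fell from 44.0 ± 1.6 to 15.1 ± 1.1 CPM (log2 change −1.54, edgeR adjusted p = 6.5e-15). In the double knockout CNTNAP2 was lower still, at 9.43 ± 0.40 CPM (log2 change −2.22 against control), where CNTN1 stood at 38.3 ± 0.73 and CNTN2 at 75.2 ± 4.9 CPM. PTPRZ1, a receptor phosphatase that binds contactins, fell from 28.2 ± 2.0 to 10.7 ± 0.55 CPM (log2 change −1.40, edgeR adjusted p = 8.49e-14). It measured 28.9 ± 0.50 CPM in the double knockout, which did not differ from control by the test (log2 change 0.04, edgeR adjusted p = 0.689).

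Of 13 other Ig adhesion genes, 9 fell and 3 rose in ATG7 KO. CADM1, an adhesion molecule of synapses and epithelia, fell from 41.3 ± 1.4 to 13.2 ± 0.55 CPM (edgeR adjusted p = 9.53e-17) and measured 38.8 ± 0.49 CPM in the double knockout, values close to those of CNTN1. LSAMP, the limbic system-associated protein, fell from 6.07 to 1.45 CPM (log2 change −2.07, edgeR adjusted p = 1.13e-09) and stood at 2.62 CPM in the double knockout. BOC, a co-receptor for hedgehog, stood at 38.4, 24.5 and 38.8 CPM in control, ATG7 KO and ATG7/SQSTM1 KO.

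Of 6 tested lectican matrix partners, 4 rose and 0 fell in ATG7 KO. VCAN, which encodes the broadly expressed lectican versican, rose from 4.79 ± 0.46 to 9.24 ± 1.1 CPM in ATG7 KO (edgeR adjusted p = 2.25e-08) and stood at 25.5 ± 0.70 CPM in the double knockout (log2 change 2.41 against control, edgeR adjusted p = 1.04e-14). Versican and neurocan were thus both above control in the double knockout but on opposite sides of it in ATG7 KO. The hyaluronan receptor CD44 rose from 36.2 ± 2.1 to 75.2 ± 0.32 CPM in ATG7 KO (edgeR adjusted p = 1.06e-13) and measured 33.2 ± 2.5 CPM in the double knockout. TNC, which encodes the lectican ligand tenascin-C, rose from 27.6 ± 2.1 to 67.3 ± 5.3 CPM (edgeR adjusted p = 9.42e-13) and fell to 13.4 ± 0.21 CPM in the double knockout, below control (log2 change −1.04, edgeR adjusted p = 6.45e-10). ACAN, the aggrecan gene, had 0 counts in all libraries.

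The membrane skeleton partners were mixed, with 4 of 10 lower and 5 higher in ATG7 KO. The ankyrins, which tie the L1 family to spectrin, moved apart: ANK2 fell from 48.0 ± 0.54 to 21.9 ± 0.35 CPM (edgeR adjusted p = 1.25e-15), whereas ANK3, the ankyrin-G of axon initial segments, rose from 46.0 ± 1.2 to 87.1 ± 1.0 CPM (edgeR adjusted p = 1.32e-14). In the double knockout ANK2 stood at 57.9 ± 0.51 CPM and ANK3 at 52.3 ± 2.0 CPM. MSN, which encodes moesin, a linker of L1CAM to actin, averaged 422, 665 and 500 CPM in control, ATG7 KO and ATG7/SQSTM1 KO.

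Of 8 genes of NCAM polysialylation and signalling, 6 fell and 1 rose in ATG7 KO. ST8SIA2, a polysialyltransferase that modifies NCAM1, fell from 7.91 ± 0.46 to 3.13 ± 0.19 CPM (log2 change −1.34, edgeR adjusted p = 8.58e-10) and measured 8.37 ± 0.30 CPM in the double knockout, where NCAM1 itself was at 21.7 ± 0.24 CPM. GFRA1, a co-receptor for GDNF that can work through NCAM1, fell from 53.1 to 15.1 CPM (log2 change −1.82, edgeR adjusted p = 7.69e-18) and stood at 40.0 CPM in the double knockout. FGFR2 and FGFR1, receptors that NCAM1 can engage, went opposite ways in ATG7 KO, from 38.3 to 14.6 CPM and from 26.6 to 36.5 CPM. Among the proteases that shed or cut these proteins, 4 of 8 rose and 2 fell. ADAM10, which sheds L1CAM and NCAM1, averaged 78.5, 100.5 and 83.1 CPM, and MMP14, a membrane-bound matrix protease, 50.5 ± 2.8, 76.2 ± 1.1 and 33.4 ± 1.8 CPM in control, ATG7 KO and ATG7/SQSTM1 KO.

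**Figure D5:**
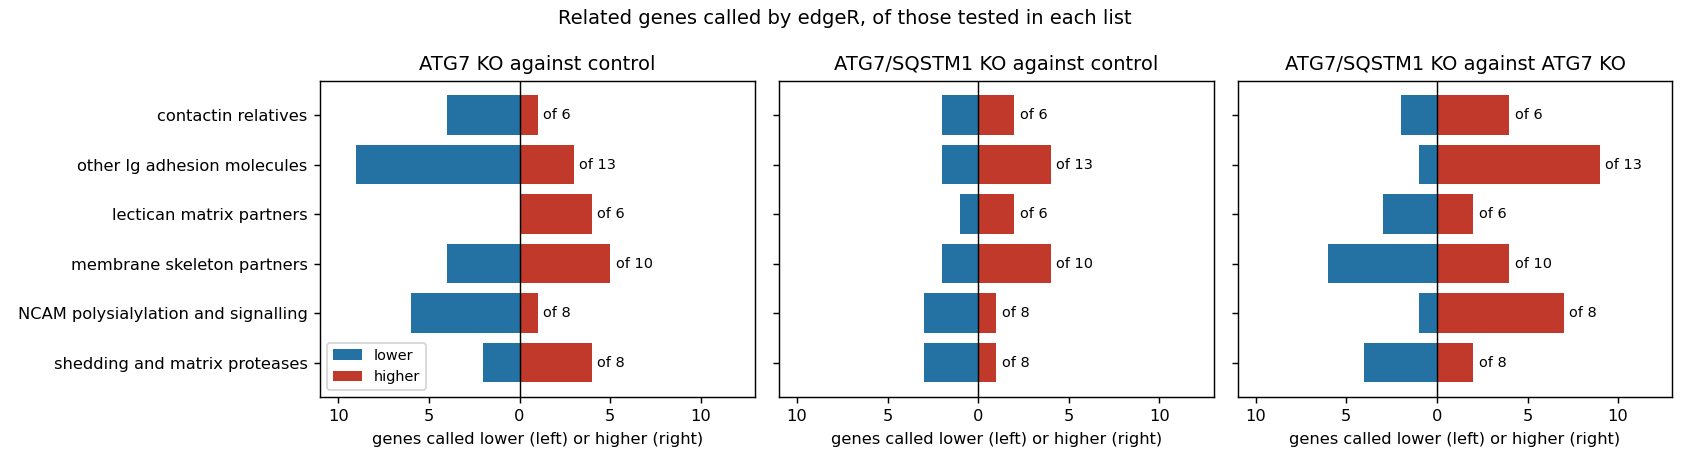
Number of genes (horizontal axes) of 6 partner lists that edgeR called lower (blue, left of 0) or higher (red, right of 0) in the 3 comparisons, with the number tested at the bar's end. In ATG7 KO against control, Ig adhesion genes (9 lower, 3 higher) and NCAM partners (6 lower, 1 higher) lie mainly to the left and lectican partners (4 higher) to the right.

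Markers of the line and of other cell types moved as well. The calls in ATG7 KO given here stand beside 28.3% lower and 28.4% higher of all tested genes. Of 12 tested neuroendocrine lung cancer markers, 9 fell and 3 rose in ATG7 KO. INSM1, a neuroendocrine transcription factor, was among those that fell, from 89.2 to 30.6 CPM. The 3 that rose were the granin SCG2 (8.35 to 12.1 CPM) and 2 genes listed for their low level in neuroendocrine cells, YAP1 (31.8 to 99.4 CPM) and REST. The 10 fibroblast markers summed to 202 to 219 CPM in control, 745 to 787 CPM in ATG7 KO and 456 to 476 CPM in ATG7/SQSTM1 KO, with 6 of 9 tested higher and 0 lower in ATG7 KO. Neuron markers summed to 149 to 155, 62.8 to 66.8 and 163 to 172 CPM, with 6 of 6 tested lower in ATG7 KO and GAD2 at 0. Glial markers summed to 29.2 to 30.2, 25.8 to 29.4 and 25.1 to 26.1 CPM, with MOG at 0 and SOX10 at 7 counts in all. Blood cell markers summed to 5.25 to 5.96, 9.48 to 10.5 and 3.36 to 4.29 CPM, with CD3E, HBB and LYZ at 0. Of 4 tested, 3 rose in ATG7 KO, PTPRC from 0.174 to 1.47 CPM and CD68 from 2.27 to 5.73 CPM among them. The other 1, ITGAM, fell from 2.79 to 1.44 CPM, and stood at 0.857 CPM in ATG7/SQSTM1 KO. The part of these markers' shifts in the levels of the 10 genes was not tested.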

How the data were processed

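The authors deposited a table of raw counts per gene for 9 libraries of DMS273, made from rRNA-depleted, strand-specific total RNA per the labels' protocols. The submitters' processing notes name HISAT2 and hg38. Which program, annotation and strand setting produced the counts is not stated there. The 362598 missing cells were read as 0, since no cell holds a 0, and 1 numbering row and 1 unlabelled column were left out.

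The test was edgeR 4.0.16 (R 4.3.3): filterByExpr by group (minimum count 10), TMM (factors 0.977 to 1.01) and a robust quasi-likelihood fit of all 9 libraries with 6 residual degrees of freedom, adjusted by Benjamini-Hochberg over 18847 genes. The biological coefficient of variation was 6.39%. GENCODE 29 gave coordinates and exon lengths, and RefSeq gave the promoter windows. Intervals of counts cover counting error only.

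The genes and lists were chosen with earlier results of these data known. Named genes are the 10 genes, up to 4 genes per list with the smallest p, and the 3 nearest profiles among genes of at least 5 CPM; further list genes were named after their values were seen. A gene the rule names is not reported here. The profile genes skip clone names, antisense and pseudogenes. Alternatives were DESeq2 1.42.0, other scalings and filters, a fit of only the 6 libraries compared, a replicate block, and leaving out each library. The script was tested on simulated data.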

Additional observations from a re-analysis of the deposited data

How the results depend on the processing

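Counts of the 9 tested genes kept their size under the alternatives run: in ATG7 KO against control 8 were lower in each, in ATG7/SQSTM1 KO against control 4 to 5 were lower and 1 higher, and against ATG7 KO 7 were higher. Over all tested genes the counts ran from 4676 to 5544 higher and 4810 to 5948 lower, from 3073 to 3708 and 3172 to 3784, and from 5288 to 6273 and 5138 to 5788, in the same order. Of 348 values for the log2 change of these genes under an alternative, 342 stayed on their side of the threshold, and the 6 that did not are those of BCAN in ATG7/SQSTM1 KO against control given above. The sign changed in 8 of them, all of CHL1 or NFASC where neither was called. For CHL1 in ATG7/SQSTM1 KO against control the change ran from −0.47 to 0.09, and a minimum mean of 1 CPM removed it from the 3 comparisons. Among other named genes 84 values lost a call and 16 gained one, and 0 called changes turned sign. List counts shifted to or from 0, or by a large ratio to the main count, in 55 of 936 cases, by 1 or 2 genes. Shifts that were small beside the main count of a list are not among these 55.

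Replicate numbers 1 to 3 are not said to pair libraries, and same-numbered libraries did not deviate together (r from −0.0613 to 0.0234). With the replicate number as a block, 8 genes were lower in ATG7 KO, 5 lower and 1 higher in ATG7/SQSTM1 KO against control, and 7 higher against ATG7 KO. Over all genes the block gave 5306 higher and 5258 lower, 3512 and 3625, and 5682 and 5580. Depth limits CHL1 and NCAM2 most, and after them NCAN in ATG7 KO, at 6 to 12 counts a library.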
